A study of Mus musculus with 8 samples.

Results

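Collagens are the fibrous proteins of the extracellular matrix, and 44 genes whose symbols follow the collagen chain pattern (Col, a type number, the letter a and a chain number) were found among the 25834 genes of the deposited table. Members were taken by symbol alone, but the gene group itself was chosen with earlier results of these data known. They fall into 11 fibrillar chains, 8 chains of basement membranes (types IV, XV and XVIII) and 25 other chains. Hippocampal RNA of 8 male mice, 4 of them controls and 4 SAP97-cKO, gave 1 library each. In SAP97-cKO mice both copies of Dlg1, the gene for the scaffold protein SAP97, are floxed, and the mice carry a Cre recombinase driven by the Nestin promoter (Nestin-cre+/-; SAP97fl/fl), which is active in neural progenitors. Controls were littermates, for which the methods list Nes-cre+/-, SAP97fl/fl and wild-type genotypes, without saying which library had which. Nestin-cre mice were on a C57Bl/6 background, and the sources used here do not state the age of the sequenced mice.

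A collagen molecule is built from alpha chains wound into a helix, and a type is named for the chains that it holds. Fibrillar types I, III and V form the fibres of connective tissue, which in the brain are laid down mainly by fibroblasts of the meninges and of the larger vessels. Type IV forms the sheet of every basement membrane, including that around brain capillaries, and is made by endothelial cells and pericytes. Several other chains are made by neurons or glia or sit in cell membranes, such as type XXV. Chains are hydroxylated, folded with the collagen chaperone HSP47 (the product of Serpinh1), trimmed by proteinases outside the cell and cross-linked by lysyl oxidases.

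Libraries held 37388177 to 37426572 counts, and the TMM factors that scaled them were 0.963 to 1.03. Over the whole gene, Dlg1 had 3983 to 4690.3 normalized counts in controls and 2009 to 3065 in SAP97-cKO, with no overlap between genotypes. The log2 fold change was -0.86 ± 0.12 (standard error, edgeR adjusted p = 0.149). The study reports a far larger fall for reads on a single exon of Dlg1, and less SAP97 protein in SAP97-cKO hippocampi. All 11 markers of hippocampal neurons were detected, with summed levels of 10315 to 11597 counts per 1000000 (CPM, TMM-scaled) in controls and 11346 to 13168 in SAP97-cKO. Their log2 fold changes were above 0 in 9 and below 0 in 2 (median 0.19). Choroid plexus markers differed widely between libraries of the same genotype, from 457 to 10068 CPM in controls and from 256 to 3341 in SAP97-cKO. In RNA of a whole tissue, fewer cells of a type and less RNA per cell cannot be told apart.

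Collagens held 99523 reads over the 8 libraries, or 0.0333% of all counts. In CPM per kilobase of the transcript with the longest coding sequence, the scale used here to compare levels between genes, Col25a1 had the highest level, 26.4 ± 6.02 in controls and 29.8 ± 2.71 in SAP97-cKO (SD, n = 4). Col25a1 encodes a transmembrane collagen of neurons. The next was Col9a3, a chain of the fibril-associated type IX, at 9.83 ± 6.28 and 6.22 ± 2.06. Col4a2 (4.51 ± 1.00 and 5.09 ± 0.804) and Col4a1 (4.57 ± 0.815 and 4.51 ± 0.854), the chains of the common type IV basement membrane collagen, came next by their mean over all 8 libraries, and their ranges over the libraries overlapped. Among the fibrillar chains Col1a2 (4.998 ± 1.10 and 2.47 ± 0.519) and Col11a2 (3.11 ± 0.258 and 3.53 ± 0.775) were highest. These levels depend on the length used. Per kilobase of all merged exons, a scale added after the values had been seen, Col9a3 (7.77 ± 4.96 in controls and 4.92 ± 1.63 in SAP97-cKO) stood above Col25a1 (5.36 ± 1.22 and 6.04 ± 0.550) and Col11a2 stood above Col1a2 in both genotypes. Levels of the lowest genes, such as Col24a1 (0.0130 ± 0.0139 in controls), rested on a few reads per library.

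**Figure D1:**
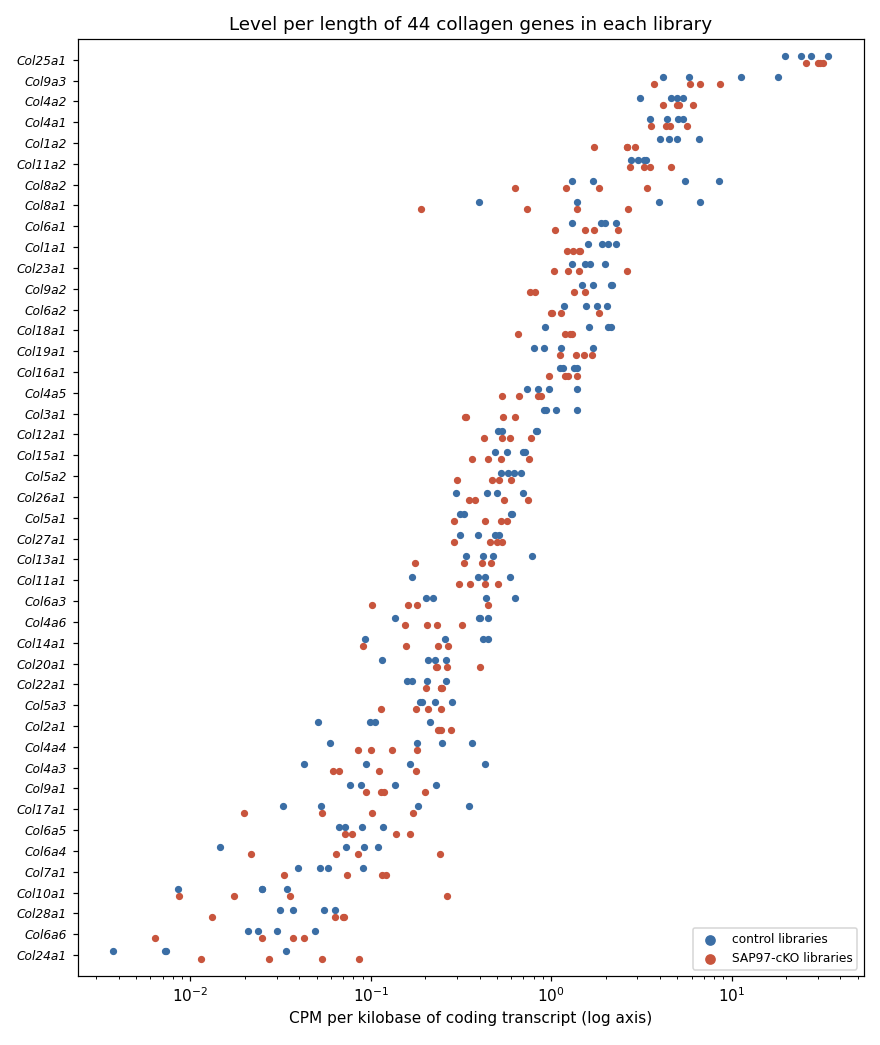
Level of each of the 44 collagen genes in each library, in CPM per kilobase of coding transcript on a log axis. Blue points are the 4 control libraries and red points are the 4 SAP97-cKO libraries. Col25a1 is at the top, between 19.8 and 34.1, and the points of Col8a1 and Col8a2 are spread widely within each genotype.

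Whether collagen genes differ between SAP97-cKO and control hippocampi was compared with edgeR's quasi-likelihood test on the counts of 16241 genes with a mean of 10 or more reads, at the study's FDR of 0.25. Of the 44 collagens, 40 passed this filter. Col1a2 and Col3a1 were lower in SAP97-cKO and no collagen was higher, where 0.216% of all genes tested were called in either direction. These are 5% of the collagens tested, beside 0.209% of all genes tested that were lower and 0.00616% that were higher. Both are also in the study's own list of changed genes, which was made from these libraries, so their calls are not independent evidence. That list prints both with a positive sign, as it does Dlg1, without saying which genotype the sign refers to. The study's text describes nearly all genes of the list as lower in SAP97-cKO. At an unadjusted p under 0.05, 4 collagens were lower, 10% of those tested beside 7.02% of all genes, and 1 was higher, 2.5% beside 4.78%. The libraries of the genotypes did not overlap in 3 lower collagens (7.5% beside 3.48% of all genes) and in 1 higher collagen (2.5% beside 2.79%). The log2 fold changes of the 40 collagens ran from -1.31 to 1.08 with a median of -0.23, where the median of all genes tested was -0.01, and 27 of the 40 were below 0 (67.5% beside 52.8%). When control replicate 2, SAP97-cKO replicate 3 or SAP97-cKO replicate 4 was left out, edgeR called 0 collagens and 0 genes in all, with 5, 5 and 6 collagens at an unadjusted p under 0.05. DESeq2 called 5 collagens, Col1a1, Col1a2, Col3a1, Col9a2 and Col2a1, the last as higher, at an FDR at which it called 6.61% of all genes.

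**Figure D2:**
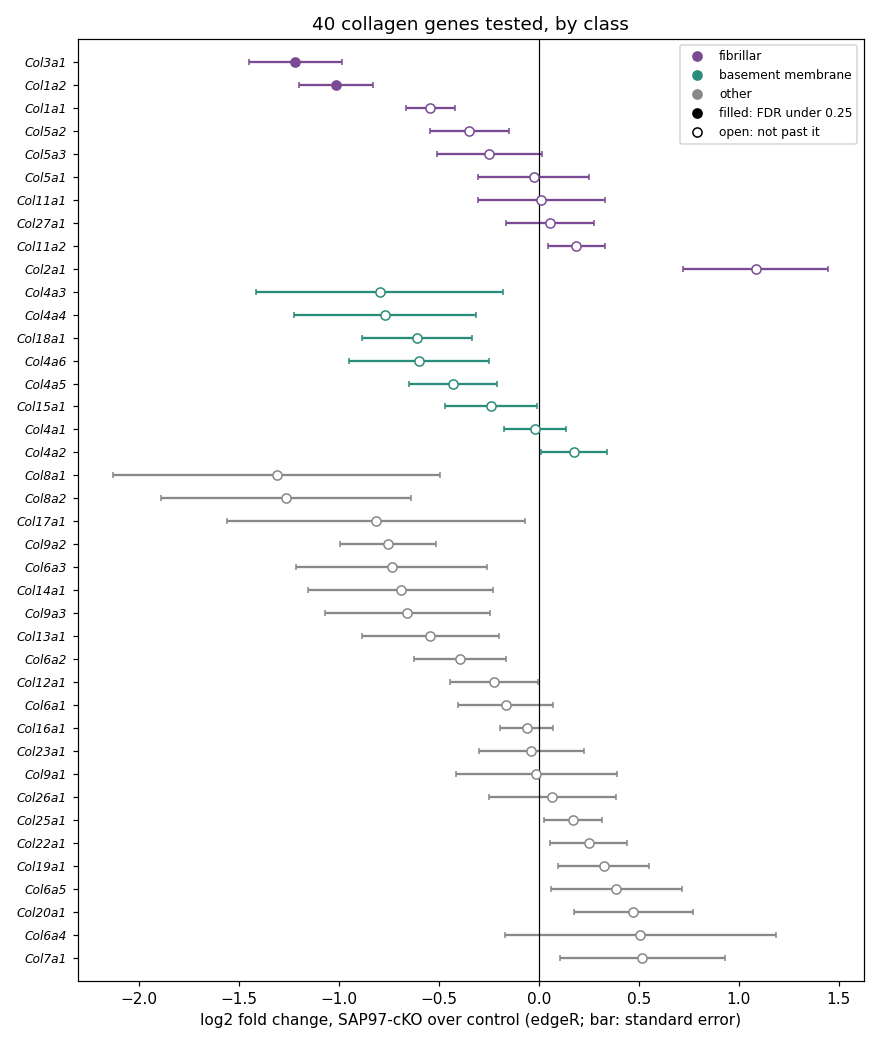
Log2 fold change (SAP97-cKO over control, edgeR) of the 40 collagens tested, grouped as fibrillar, basement membrane and other collagens, with bars for the standard error. Filled points are past the FDR of 0.25. Col1a2 and Col3a1 are the filled points, at -1.01 and -1.22, while Col8a1 and Col8a2 lie as far to the left with wider bars.

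Col1a2 and Col1a1 encode the chains of type I collagen, the main protein of connective tissue fibres. Col1a2 (ENSMUSG00000029661; chromosome 6 of GRCm38, 4504814 to 4541544, plus strand) had 989, 1309, 899 and 801 normalized counts in control replicates 1 to 4 and 525, 581, 528 and 344 in SAP97-cKO replicates 1 to 4. The highest SAP97-cKO library was below the lowest control library. The mean was 999.6 ± 220 in controls and 495 ± 104 in SAP97-cKO (SD, n = 4), and the log2 fold change was -1.01 ± 0.18 SE (standard error; edgeR adjusted p = 0.194). Its partner Col1a1 (ENSMUSG00000001506; chromosome 11, 94936224 to 94953042, plus strand) had 460.0, 507, 423 and 353 normalized counts in controls and 291, 316, 318 and 271 in SAP97-cKO. These libraries did not overlap either. The log2 fold change of Col1a1 was -0.54 ± 0.12 SE and was not past the threshold (edgeR adjusted p = 0.286).

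Col3a1, the chain of type III collagen, which lies beside type I in fibres of vessels and soft tissues, had the largest fold among the called collagens. Col3a1 (ENSMUSG00000026043; chromosome 1, 45311538 to 45349706, plus strand) had 288, 222, 189 and 194 normalized counts in controls and 70.3, 131, 112 and 69.6 in SAP97-cKO. The lowest control library stood above all SAP97-cKO libraries, of which replicates 1 and 4 were the lowest. The mean was 223 ± 45.4 in controls and 95.9 ± 31.0 in SAP97-cKO (SD, n = 4), or 42.9% of the control mean, with a log2 fold change of -1.22 ± 0.23 SE (edgeR adjusted p = 0.205). In GENCODE, some exonic bases of Col3a1 are shared with Gm47302 on the same strand, so their reads cannot be told apart.

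Both calls changed with the libraries included. With control replicate 2 left out, the adjusted p of Col1a2 was 0.410 (edgeR). It was 0.498 when SAP97-cKO replicate 3 was left out and 0.363 when SAP97-cKO replicate 4 was, with log2 fold changes of -1.11 to -0.86 over the 8 libraries left out. That of Col3a1 was 0.515, 0.498 and 0.465 in the same settings and 0.256 when control replicate 4 was left out (edgeR), with log2 fold changes of -1.41 to -1.07. Col1a1 was called by edgeR when control replicate 1 (adjusted p = 0.183), control replicate 4 (0.236) or SAP97-cKO replicate 1 (0.215) was left out, where 10.7%, 0.197% and 4.31% of all genes were called. On all 8 libraries, edgeR called it with no scaling (0.198) and with no filter (0.230), beside 0.523% and 0.403% of all genes.

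The sequences just before the starts of Col1a2 and Col3a1, the 2 called genes, are shown to set their promoters side by side. They are the 250 bases before the RefSeq start (GRCm38.p6), chr6:4505368-4505617 for Col1a2 and chr1:45311288-45311537 for Col3a1, both on the plus strand. Exons of other Col1a2 transcripts in GENCODE reach into the first of these windows. Capitals mark CCAAT (the CCAAT box), the TATA motif TATAAA and the GC box motif GGGCGG, searched on both strands.
Col1a2: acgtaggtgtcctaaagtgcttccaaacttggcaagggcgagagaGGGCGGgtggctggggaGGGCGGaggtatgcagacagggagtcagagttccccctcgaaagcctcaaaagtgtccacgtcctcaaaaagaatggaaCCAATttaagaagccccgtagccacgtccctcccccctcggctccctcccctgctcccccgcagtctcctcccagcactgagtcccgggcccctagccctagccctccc
Col3a1: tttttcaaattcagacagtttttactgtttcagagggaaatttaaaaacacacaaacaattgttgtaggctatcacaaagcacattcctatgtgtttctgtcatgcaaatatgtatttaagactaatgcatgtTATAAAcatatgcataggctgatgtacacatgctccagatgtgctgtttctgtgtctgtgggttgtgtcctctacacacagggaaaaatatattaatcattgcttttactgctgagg
The Col1a2 window held the CCAAT box once, with its first letter 109 bases before the start, and the GC box motif at 205 and 188 bases. The Col3a1 window held the TATA motif at 117 bases and neither of the other motifs. Over 32851 such windows of mouse genes, 33.8% held the CCAAT box, 12.4% the TATA motif and 32.7% the GC box motif. Of 38 windows of 35 collagen genes, 34.2%, 13.2% and 57.9% did. Col1a1 and Col2a1 have no window in the table used. A match of letters is not a site of binding.

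The reads of chains within a library can be set against each other, which leaves out the scaling between libraries. These ratios were chosen after their values had been seen and were not tested. Col1a2 had 2.12 to 2.58 reads per read of Col1a1 in control libraries and 1.27 to 1.84 in SAP97-cKO libraries. Col3a1 had 0.438 to 0.626 reads per read of Col1a1 in controls and 0.241 to 0.416 in SAP97-cKO. Against Col4a1, the vessel basement membrane chain, Col1a2 had 0.723 to 1.21 reads in controls and 0.376 to 0.546 in SAP97-cKO, and Col3a1 had 0.152 to 0.223 and 0.0503 to 0.123. None of these ranges overlapped between genotypes. Of 7 ratios computed, Col8a2 to Col8a1 and Col6a2 to Col6a1 overlapped.

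The summed level of Col1a1, Col1a2 and Col3a1 was 36.0 to 54.5 CPM in control libraries and 18.3 to 27.5 CPM in SAP97-cKO libraries. Markers of meningeal fibroblasts other than collagens were summed in the same libraries. All 14 were detected in the libraries, all 14 had a log2 fold change below 0 (median -0.96), 3 were past the threshold (Ogn, Slc22a6 and Aldh1a2, beside 0.209% of all genes called lower) and 8 were lower with no overlap between genotypes (beside 3.48% of all genes). Of the 14, 5 are in the study's list of changed genes. Ogn is printed there with a negative sign, and Omd, Slc6a13, Slc22a6 and Aldh1a2 with a positive one. The study's text describes nearly all genes of that list as lower in SAP97-cKO. The summed level of the 14 markers was 304 to 558 CPM in controls and 176 to 292 CPM in SAP97-cKO, with Igf2 holding 42.3% of it. Without Igf2 the sums were 153 to 262 CPM and 92.6 to 163 CPM, which overlapped. Among the 14, the proteoglycan gene Dcn had a log2 fold change of -0.01 ± 0.42 SE. Its normalized counts ran from 610 in SAP97-cKO replicate 1 to 3069 in control replicate 4. Pericyte and smooth muscle markers had a log2 fold change below 0 in 11 of 11 (median -0.26). They summed to 235 to 256 CPM in controls and 144 to 234 in SAP97-cKO, with no overlap. Without Rgs5, which held 42.4% of this level, the sums were 135 to 149 CPM and 79.4 to 126 CPM, which did not overlap either. From highest to lowest, the SAP97-cKO libraries stood in the same order for Col1a2 as for the summed fibroblast markers (replicates 2, 3, 1 and 4). The summed choroid plexus markers had this order too, and Col1a2 differed little between SAP97-cKO replicates 3 and 1 (528 and 525). Controls stood in the order 2, 1, 3 and 4 for Col1a2 and 2, 3, 1 and 4 for the fibroblast markers. Without Igf2 the SAP97-cKO order of the fibroblast markers was 2, 3, 4 and 1, and control replicate 3 rather than 4 was the lowest control. The part of these cells in the lower levels of Col1a2 and Col3a1 was not tested.

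The other fibrillar chains did not pass the threshold. Col5a1 and Col5a2 encode chains of type V, which sits inside type I fibres and sets their width. Col5a1 had 187, 191, 103 and 98.0 normalized counts in controls and 165, 178, 135 and 90.3 in SAP97-cKO, with wide overlap (log2 fold change -0.03 ± 0.28 SE). Col5a2, whose gene lies 24614 bases from the end of Col3a1 on the opposite strand, had 153, 167, 131 and 142 in controls and 148, 116, 127 and 74.8 in SAP97-cKO (log2 fold change -0.35 ± 0.20 SE, edgeR adjusted p = 0.493). Col11a2, a chain of the cartilage type XI, had 660.1, 674, 613 and 559 in controls and 926, 554, 708 and 662 in SAP97-cKO (log2 fold change 0.19 ± 0.14 SE). Of the 7 tested fibrillar chains outside types I and III, 3 had a log2 fold change below 0, 4 were above 0 and none was called by edgeR, with 1 (Col2a1) at an unadjusted p under 0.05.

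Col2a1, the chain of cartilage type II collagen, had the highest log2 fold change of the 40 collagens tested. It had 20, 18.9, 40.8 and 9.70 normalized counts in controls and 44.8, 46.8, 45.6 and 53.0 in SAP97-cKO. The genotypes did not overlap, with control replicate 3 close to the SAP97-cKO libraries. Its log2 fold change of 1.08 ± 0.36 SE was not past the threshold (edgeR adjusted p = 0.349), and its counts were low, with 91 reads over the 4 control libraries and 187 over the 4 SAP97-cKO libraries. Without control replicate 3 the log2 fold change was 1.55 and Col2a1 was called (edgeR adjusted p = 0.230), beside 0.29% of all genes. Col24a1, another fibrillar chain, had 14 reads over the control libraries and 47 over the SAP97-cKO libraries and was too low to be tested.

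**Figure D3:**
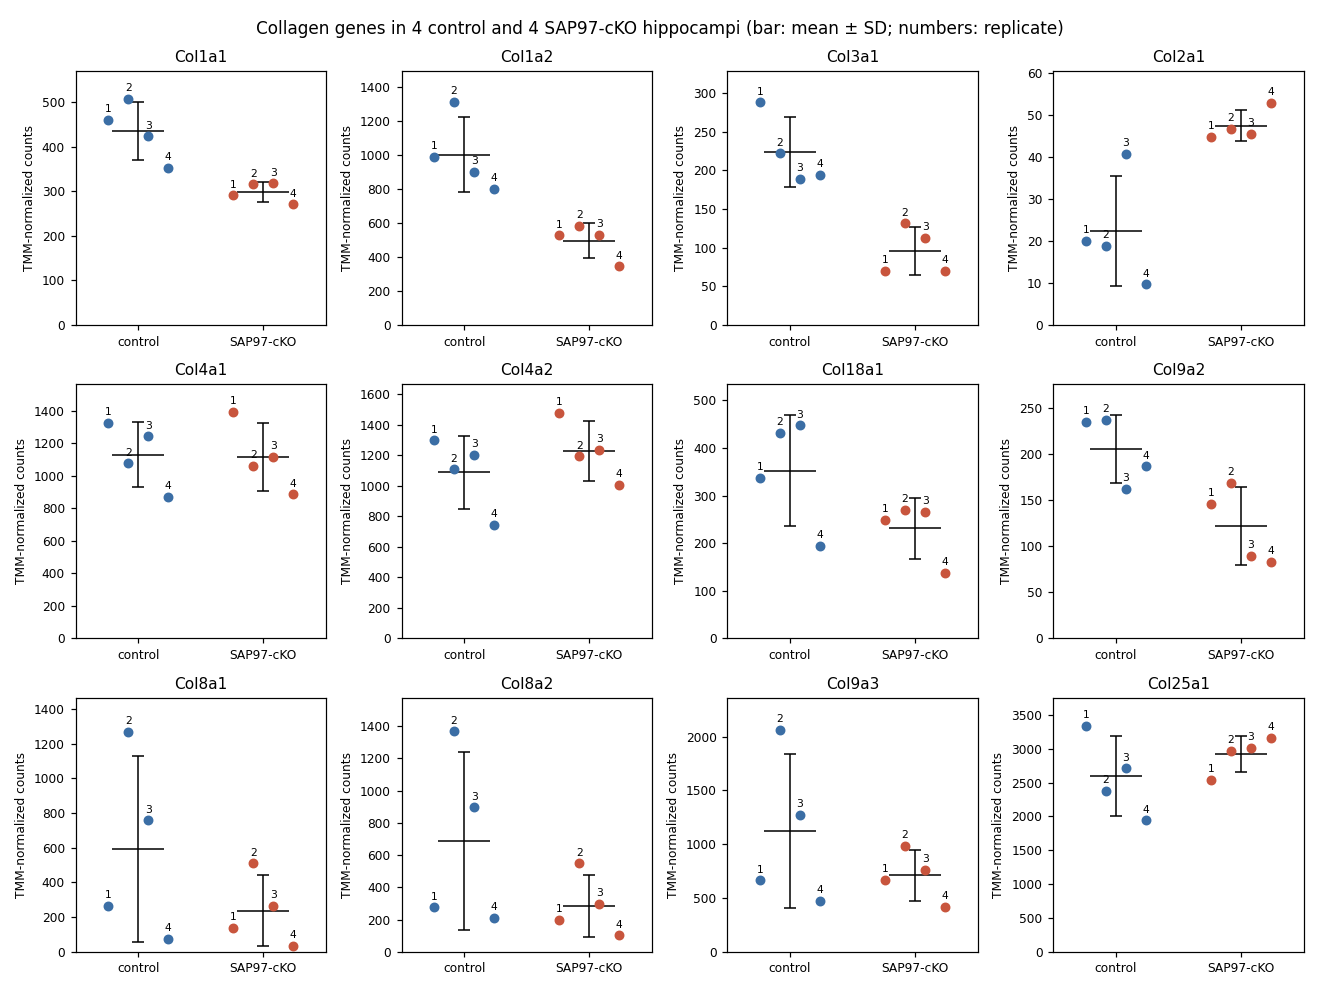
TMM-normalized counts of 12 collagen genes in the 4 control and 4 SAP97-cKO libraries, with the replicate number beside each point and a bar for the mean ± SD. The points of Col1a1, Col1a2 and Col3a1 lie lower in SAP97-cKO with no overlap, those of Col4a1 and Col4a2 overlap, and those of Col8a1, Col8a2 and Col9a3 are highest in control replicate 2.

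None of the 8 basement membrane chains was called by edgeR (lowest adjusted p = 0.423), by limma-voom or by DESeq2, and 0 were at an unadjusted p under 0.05 in edgeR. Their log2 fold changes were below 0 in 7 of 8 (87.5% beside 52.8% of all genes), with a median of -0.52, beside -0.14 for the fibrillar chains. Col4a1 (ENSMUSG00000031502; chromosome 8, 11198423 to 11312826, minus strand) had 1329, 1078, 1243 and 871 normalized counts in controls and 1396, 1064, 1120 and 887 in SAP97-cKO. The libraries overlapped over nearly their whole range, and the log2 fold change was -0.02 ± 0.16 SE (edgeR adjusted p = 0.973). Col4a2 (ENSMUSG00000031503; chromosome 8, 11312805 to 11449287, plus strand) had 1297, 1109, 1201 and 743 in controls and 1478, 1194, 1235 and 1006 in SAP97-cKO (log2 fold change 0.18 ± 0.17 SE). Control replicate 4 was the lowest library for both chains. The genes of these chains are head to head, with annotated starts 21 bases apart, and Col4a2 had 0.853 to 1.03 reads per read of Col4a1 in controls and 1.06 to 1.13 in SAP97-cKO. Exons of the pair share 22 bases on opposite strands, and the sources used here do not say if reads were counted by strand.

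The remaining type IV chains had lower levels. Col4a3 and Col4a4, the chains of the kidney glomerulus, are also head to head, with starts 72 bases apart. Col4a3 had 30.0, 137, 52.4 and 13.6 normalized counts in controls and 21.4, 56.7, 35.5 and 19.7 in SAP97-cKO, and Col4a4 had 68.0, 137, 93.2 and 22.3 and 37.7, 67.7, 49.7 and 32.2. Both were highest in control replicate 2 and in SAP97-cKO replicate 2, and the log2 fold changes were -0.80 ± 0.62 SE and -0.77 ± 0.45 SE. Those of Col4a5 and Col4a6, which are also neighbours, were -0.43 ± 0.22 SE and -0.60 ± 0.35 SE (edgeR adjusted p = 0.456 and 0.506). Col18a1, whose chain carries the endostatin fragment, had 337, 431, 448 and 194 in controls and 249, 271, 266 and 137 in SAP97-cKO (log2 fold change -0.61 ± 0.28 SE, edgeR adjusted p = 0.423). Col15a1, a related chain of vessel walls, had 94, 135, 138 and 109.7 in controls and 145, 86.6, 101 and 70.6 in SAP97-cKO (log2 fold change -0.24 ± 0.23 SE). Endothelial markers summed to 362 to 409 CPM in controls and 269 to 434 CPM in SAP97-cKO, and 12 of 12 had a log2 fold change below 0 (median -0.22) with none called by edgeR.

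The largest fold changes among the 40 collagens tested were those of the type VIII chains, which form short networks under endothelia and in the choroid plexus and are named here only because of these values. Col8a1 had 264, 1270, 758 and 75.7 normalized counts in controls and 140, 511, 265 and 36.3 in SAP97-cKO. Col8a2 had 275, 1369, 896 and 209.6 in controls and 197, 549, 296 and 102 in SAP97-cKO. Libraries of a genotype differed more from each other than the genotypes did, and the ranges overlapped. The log2 fold changes were -1.31 ± 0.82 SE for Col8a1 and -1.27 ± 0.62 SE for Col8a2, with adjusted p-values of 0.526 and 0.446 from edgeR. With 1 library left out they ran from -2.005 (SAP97-cKO replicate 2) to -0.62 (control replicate 2) for Col8a1 and, for the same libraries, from -1.79 to -0.69 for Col8a2. From highest to lowest, the 8 libraries stood in the same order for Col8a1 as for the summed choroid plexus markers. Control replicates 2 and 3 led both orders, and SAP97-cKO replicate 4 was last. Without Ttr the orders differed in 1 place, with the markers at 789.5 CPM in control replicate 1 and 684 CPM in SAP97-cKO replicate 3. These 12 markers had a log2 fold change below 0 in 12 of 12 (median -1.49), none was called by edgeR and Ttr held 60.0% of their sum. Their part in the values of Col8a1 and Col8a2 was not tested.

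The 250 bases before the RefSeq starts of the type VIII genes are shown to set their promoters side by side. They are chr16:57754738-57754987 on the minus strand for Col8a1 and chr4:126286544-126286793 on the plus strand for Col8a2, with capitals for the same motifs.
Col8a1: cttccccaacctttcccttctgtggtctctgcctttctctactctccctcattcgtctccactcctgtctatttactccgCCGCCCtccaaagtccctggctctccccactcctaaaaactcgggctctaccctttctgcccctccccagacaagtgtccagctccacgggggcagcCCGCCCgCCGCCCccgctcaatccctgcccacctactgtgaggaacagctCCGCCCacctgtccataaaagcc
Col8a2: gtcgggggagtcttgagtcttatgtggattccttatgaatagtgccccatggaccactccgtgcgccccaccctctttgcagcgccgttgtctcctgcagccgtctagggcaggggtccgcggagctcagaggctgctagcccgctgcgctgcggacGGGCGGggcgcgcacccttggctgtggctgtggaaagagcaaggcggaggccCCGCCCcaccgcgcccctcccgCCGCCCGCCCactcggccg
Each of these windows held the GC box motif 4 times, counting both strands, and neither held the CCAAT box or the TATA motif.

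**Figure D4:**
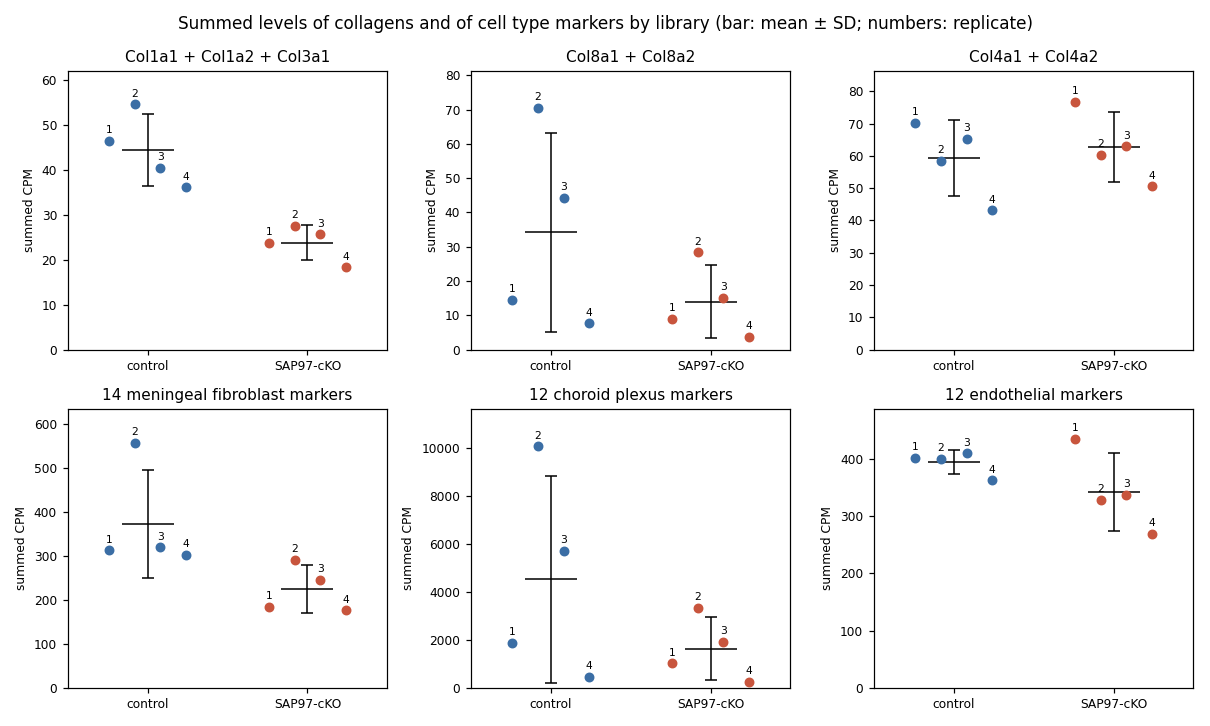
Summed CPM in each library of Col1a1, Col1a2 and Col3a1, of Col8a1 and Col8a2, and of Col4a1 and Col4a2 (top), and of 14 meningeal fibroblast, 12 choroid plexus and 12 endothelial markers (bottom), with replicate numbers and a bar for the mean ± SD. Sums of types I and III and of meningeal fibroblast markers are lower in each SAP97-cKO library than in each control library, and those of type VIII and of choroid plexus markers are highest in control replicate 2.

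Type IX collagen decorates the surface of fibrils in cartilage and is also made in the brain. Col9a3 had 664, 2063, 1275 and 476 normalized counts in controls and 667, 987, 762 and 421 in SAP97-cKO, with control replicates 2 and 3 highest (log2 fold change -0.66 ± 0.41 SE). Col9a2 had 235, 237, 162 and 186 in controls and 146, 168, 89.2 and 83.1 in SAP97-cKO. Only SAP97-cKO replicate 2 reached into the range of the controls, and the log2 fold change was -0.75 ± 0.24 SE (edgeR adjusted p = 0.347). Without SAP97-cKO replicate 1, Col9a2 was called (edgeR adjusted p = 0.249), a setting in which 4.31% of all genes were called. Col9a1, another chain of the type, had 77 reads over the control libraries and 74 over the SAP97-cKO libraries.

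Type VI collagen forms beaded filaments around cells from the products of Col6a1, Col6a2 and Col6a3. Col6a1 had 352, 305, 200.1 and 288 normalized counts in controls and 161, 359, 263 and 237 in SAP97-cKO (log2 fold change -0.17 ± 0.24 SE). Col6a2 had 230.0, 265, 174 and 299.9 in controls and 149, 273, 167 and 147 in SAP97-cKO (log2 fold change -0.40 ± 0.23 SE). Col6a3 had 84.0, 164, 237 and 76.7 in controls and 68.2, 169, 60.8 and 38.4 in SAP97-cKO (log2 fold change -0.74 ± 0.48 SE). All 3 overlapped between genotypes, and SAP97-cKO replicate 2 was the highest SAP97-cKO library for each.

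Col25a1, the highest collagen per kilobase of coding transcript, had 3343, 2384, 2711 and 1941 normalized counts in controls and 2545, 2967, 3020 and 3165 in SAP97-cKO. The SAP97-cKO libraries lay within the range of the controls, and the log2 fold change was 0.17 ± 0.14 SE (edgeR adjusted p = 0.630). Without control replicate 1, the highest library, it was 0.32 and Col25a1 was called (edgeR adjusted p = 0.246), a setting in which 10.7% of all genes were called. The 21 tested collagens other than these and the type VIII chains, with the remaining type IV chains among them, had log2 fold changes of -0.81 to 0.52, 12 below 0 and 9 above, and adjusted p-values of at least 0.456 from edgeR. Besides Col24a1, the collagens too low to be tested were Col10a1, Col6a6 and Col28a1. Col10a1 had 11 reads over the control libraries and 38 over the SAP97-cKO libraries, most of them in SAP97-cKO replicate 2. Col6a6 had 41 and 36 reads and Col28a1 had 30 and 34.

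Over all 44 collagens, the summed level was 250 to 444 CPM in controls and 254 to 348 CPM in SAP97-cKO, and the ranges overlapped. Types I and III made up 12.4% of the collagen counts in controls and 7.76% in SAP97-cKO. Col4a1 and Col4a2 made up 16.6% and 20.5%.

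Genes that modify, trim, bind or surround collagens were followed in 4 lists of 56 genes, of which 53 were tested. Among 18 genes for the enzymes and chaperones that modify and fold collagen chains, 1 was called lower in SAP97-cKO (5.56% beside 0.209% of all genes). None of the 18 was called higher, beside 0.00616% of all genes. At an unadjusted p under 0.05, 7 were lower (38.9% beside 7.02% of all genes), and the median log2 fold change was -0.15. The called gene was Serpinh1, the chaperone HSP47, with 1023, 1070.3, 964 and 887 normalized counts in controls and 693, 768, 613 and 525 in SAP97-cKO. Its libraries did not overlap, and the log2 fold change was -0.60 ± 0.12 SE (edgeR adjusted p = 0.210). Serpinh1 is also in the study's list of changed genes, printed with the same sign as Dlg1. Without control replicate 2, SAP97-cKO replicate 3 or SAP97-cKO replicate 4, edgeR called no partner gene, and 0 genes in all. Without control replicate 3 it called no partner gene, beside 0.29% of all genes.

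Of 12 tested genes for trimming and cross-linking of collagens, none was called by edgeR, 5 were lower at an unadjusted p under 0.05 (41.7%) and the median log2 fold change was -0.29. The smallest p-values were those of the lysyl oxidases Loxl2 and Lox. Loxl2 had 29.0, 58.8, 41.8 and 24.3 normalized counts in controls and 16.3, 17.9, 18.2 and 6.23 in SAP97-cKO (log2 fold change -1.38 ± 0.39 SE, edgeR adjusted p = 0.328). Lox had 59.0, 47.8, 25.3 and 40.8 in controls and 29.5, 19.9, 24.3 and 15.6 in SAP97-cKO (log2 fold change -0.95 ± 0.31 SE, edgeR adjusted p = 0.347). Both were low in reads, and the libraries overlapped for Lox alone of the pair.

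Of 8 tested genes for collagen receptors, none was called by edgeR, 3 were lower at an unadjusted p under 0.05 (37.5%) and the median log2 fold change was -0.22. Mrc2, the endocytic receptor for collagen, had 387, 496, 300.1 and 295 normalized counts in controls and 235, 241, 225 and 124 in SAP97-cKO, with no overlap (log2 fold change -0.84 ± 0.23 SE, edgeR adjusted p = 0.320). Itga10, a collagen-binding integrin subunit, had 89.0, 155, 64.1 and 46.6 in controls and 37.7, 55.8, 32.4 and 26.0 in SAP97-cKO, where replicate 2 reached into the range of the controls (log2 fold change -1.22 ± 0.38 SE, edgeR adjusted p = 0.338).

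Of 15 genes for laminins, nidogens, perlecan and agrin, the other proteins of basement membranes, none was called by edgeR, 3 were lower (20%) and 1 was higher (6.67%) at an unadjusted p under 0.05, and the median log2 fold change was -0.27. Lamc3, a laminin chain, had 218, 237, 344 and 222 normalized counts in controls and 199, 178, 186 and 116 in SAP97-cKO (log2 fold change -0.59 ± 0.20 SE, edgeR adjusted p = 0.352). Lamb2, another laminin chain, had 1169, 1320.4, 1060 and 998 in controls and 1058, 899, 960 and 843 in SAP97-cKO (log2 fold change -0.27 ± 0.10 SE, edgeR adjusted p = 0.375). Over all 4 lists, 18 of 53 genes were lower (34%) and 1 was higher (1.89%) at an unadjusted p under 0.05, beside 7.02% and 4.78% of all genes tested. DESeq2 called 10 of these genes, all lower, beside 3.76% of all genes that it called lower, and limma-voom called 1 beside 0.289%.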

How the data were processed

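RNA of 8 male hippocampi (4 control, 4 SAP97-cKO) was sequenced. The authors used STAR 2.5.3a for alignment against mm10 (GRCm38.p5), removed ribosomal and mitochondrial reads and resampled the rest to a common depth with PORT, and deposited whole-number counts per Ensembl gene. They also deposited the fold changes, p-values and q-values of their own limma-voom comparison, which were not used here. The collagens, gene lists and tests were chosen with earlier results of these data known.

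Genes with a mean of 10 or more reads (16241 of 25834) were scaled by TMM. The genotypes were compared by edgeR 4.0.16 (R 4.3.3) with its quasi-likelihood test. P-values were adjusted by Benjamini-Hochberg across these genes, at the study's FDR of 0.25. The biological coefficient of variation was 0.152. The fit was run on simulated independent counts with known changes, as a check of the code. That simulation had no differences shared by many genes of a library, so it cannot speak to the calls made here. Standard errors are the log2 fold change divided by the square root of F. Normalized counts are TMM-scaled to the mean effective library size. Since reads had been resampled, libraries differed little in depth (37388177 to 37426572 counts).

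Per-length levels used GENCODE M21 (GRCm38), to which all 44 collagens matched by identifier. Gene starts in the table lie mostly 200 bp upstream of the annotation. Promoter windows were from RefSeq (GRCm38.p6). Collagens named with values in every library are those past the threshold, Col1a1, Col1a2, Col3a1 and Col4a1, a list of related chains (Col4a2, Col5a1, Col5a2, Col6a1, Col6a2, Col6a3, Col15a1 and Col18a1), those at an unadjusted p under 0.05 and the 2 most abundant per length of each class. Col8a1, Col8a2, Col4a3, Col4a4 and the genes too low to test were added after their values had been seen. From each of the other lists, the called genes or the 2 with the smallest p were named. Alternatives were limma-voom 3.58.1, DESeq2 1.42.0, other scalings and filters, a replicate block, an FDR of 0.05 and each library left out. No library was a copy of another (chi-square per gene of 9.63 to 72.0 between pairs).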

Additional observations from a re-analysis of the deposited data

Results flagged for a closer look

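In groups of 4 libraries, 8 of 78 groups examined had a library whose gap to its nearest neighbour was above Dixon's critical share of the range, which chance gives in about 1 of 20 groups. Among collagens, Col18a1 in SAP97-cKO replicate 4 had 137 normalized counts where the other SAP97-cKO libraries had 249 to 271. Col6a2 in SAP97-cKO replicate 2 had 273 where the others had 147 to 167. The summed level of the basement membrane chains was 58.0 CPM in control replicate 4 and 92.6 to 93.4 CPM in the other controls.

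Among the partner genes, Loxl2 had 6.23 normalized counts in SAP97-cKO replicate 4 and 16.3 to 18.2 in the others, and Mrc2 had 124 there and 225 to 241 in the others. Lamc3 had 344 in control replicate 3 and 218 to 237 in the other controls. Of the marker sums, meningeal fibroblast markers reached 558 CPM in control replicate 2 with 304 to 320 CPM in the other controls, and pericyte and smooth muscle markers reached 256 CPM in control replicate 1 with 235 to 238 CPM in the other controls. SAP97-cKO replicate 4 was the low library in 3 of the 8.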

How the results depend on the processing

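The number of collagens past the threshold (2) was 5 with DESeq2, where 6.61% of all genes were called, 7 with a replicate block and 0 at an FDR of 0.05, and ran from 0 to 5 with 1 library left out. Col1a2 and Col3a1 were called by each other tool, scaling and filter tried. The number of partner genes past the threshold (1) was 10 with DESeq2, 2 with no scaling, 6 with the replicate block and 0 at an FDR of 0.05, and ran from 0 to 12 with 1 library left out. The number of all genes past the threshold (35) was 1031 with DESeq2, 85 with no scaling, 104 with no filter, 250 with the replicate block and 0 at an FDR of 0.05, and ran from 0 to 1739 with 1 library left out. Without control replicate 2, SAP97-cKO replicate 3 or SAP97-cKO replicate 4, edgeR called 0 genes, and 1408, 1264 and 1176 genes had an unadjusted p under 0.05. The cause of these shifts was not tested. Libraries of the same replicate number had correlations of deviations of -0.084, 0.215, 0.0855 and 0.263, and those of different numbers -0.44 to 0.32. The sources used here do not say if the numbers pair libraries, and pairing was not tested. The block rests on the number alone. With it, Col18a1, Col1a1, Col8a1, Col8a2 and Col9a2 were called too.

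Of 304 log2 fold changes of the 19 collagens named, 271 kept their direction and their side of the threshold. Direction turned in Col5a1 with limma-voom (0.0056), and with 1 library left out in Col5a1 (-0.17 to 0.14), Col4a1 (-0.14 to 0.076) and Col6a1 (-0.38 to 0.0018). Depth limits Col2a1, Lox and Loxl2 and the 4 collagens not tested.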
